A study of Mus musculus with 12 samples.

Results

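Liver X receptors (LXRs) are nuclear receptors that sense oxysterols, pair with retinoid X receptors and, when loaded with ligand, switch on genes that move cholesterol out of the cell. In microglia, the macrophages of the brain, this programme includes the membrane exporters ABCA1 and ABCG1 and the lipid carrier apolipoprotein E, and it is known to be tied to phagocytosis of lipid-rich debris and to restraint of inflammatory genes. The genes followed here were the LXR genes Nr1h2 and Nr1h3, the exporters Abca1 and Abcg1, and Apoe. Mylip, Ch25h, Lpcat3, Scd2 and Plin2, which encode enzymes, a ubiquitin ligase and a lipid droplet protein linked to the same sterol axis, completed the set. They were taken by symbol from the table of raw read counts, where each of the 10 symbols matched 1 row of 55416 gene identifiers.

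Total RNA was sequenced with a stranded kit after ribosomal RNA removal, in 4 groups of 3 libraries of SIM-A9, a microglial cell line from C57BL/6 mice. The groups were the H14 line, which lacks the kinase MOK according to its label (KO), after 5 h with 1 µg/mL lipopolysaccharide (LPS), the same line in medium alone, wild-type cells (WT) given LPS in the same way, and WT cells in medium alone. LPS is the bacterial cell wall component that activates macrophages. All cells were grown in serum-containing medium, which supplies lipoproteins, and the KO cells are 1 line, so effects of MOK loss and of other changes in H14 cells cannot be told apart. The labels call the libraries biological replicates without saying how the cultures were separated, so each p-value here measures only how these samples spread, which may be technical.

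Library totals ran from 39.7 M to 72.9 M counts. Levels are given as CPM, the counts of a gene per M of its library after scaling. Mok was detected in all 12 libraries and was lower in KO under LPS (log2 fold change -0.72 ± 0.19 SE, edgeR adjusted p = 0.0177). In medium the difference was -0.58 ± 0.19 (adjusted p = 0.0501), so the counts check the knockout label only in part. Of 13 microglia and macrophage markers, 9 were at 1 CPM or more in every library, among them Csf1r, Trem2 and Spi1, while Aif1, Cx3cr1, P2ry12 and Tmem119 fell under that level in at least 1 library. The summed level of those 13 genes was 1127 to 1576 CPM in KO LPS, 838 to 1223 CPM in KO medium, 1581 to 1832 CPM in WT LPS and 1217 to 1441 CPM in WT medium. Markers of astrocytes, neurons, oligodendrocytes and fibroblasts, 5 genes each, summed to at most 22.5 CPM in any library, and none of the genes was at 0 in all 12. The oligodendrocyte sum, mostly Mbp, moved with line and treatment, at 10.9 to 14.1 CPM in KO LPS, 20.6 to 22.5 CPM in KO medium, 6.52 to 6.61 CPM in WT LPS and 9.30 to 11.6 CPM in WT medium. Its part in the results was not tested. The share of counts in processed pseudogenes was 6.64% to 7.35% in KO LPS, 12.8% to 14.3% in KO medium and 6.28% to 7.05% in WT LPS. WT medium replicate 2 also stood apart, with a share of 13.1% against 8.89% and 6.58% in the other WT medium libraries. KO LPS replicate 2 stood apart from the other libraries, with 10.4% of its counts in identifiers without a gene symbol against 4.88% to 8.18% elsewhere. In bulk RNA, fewer cells that express a gene and less of its RNA per cell cannot be told apart.

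Because LXR binds DNA at a direct repeat of AGGTCA spaced by 4 bases (DR4), the RefSeq promoter windows of these genes (build GRCm38.p6, 250 bases before to 50 after a transcription start) were searched on both strands. The windows covered 8 of the 10 genes with 11 starts. No window held this element with up to 2 mismatches over its 12 fixed bases, against 3.02% of 32851 windows of all genes. With up to 3 mismatches, a limit chosen after the windows were seen, the Abca1 window held 1 match, and 21.9% of all windows did. A DR1 element, the same repeat of AGGTCA spaced by 1 base and used by PPAR receptors, was matched with 2 mismatches in the Plin2 window, against 3.86% of all windows. The 250 bases before the start of both genes are shown because these windows held the matches, with the DR4 match of Abca1 and the DR1 match of Plin2 in capitals. They lie on the minus strand at chr4:53159896-53160145 for Abca1 and at chr4:86670060-86670309 for Plin2. A match to these letters is a description only, and binding was not tested.
Abca1: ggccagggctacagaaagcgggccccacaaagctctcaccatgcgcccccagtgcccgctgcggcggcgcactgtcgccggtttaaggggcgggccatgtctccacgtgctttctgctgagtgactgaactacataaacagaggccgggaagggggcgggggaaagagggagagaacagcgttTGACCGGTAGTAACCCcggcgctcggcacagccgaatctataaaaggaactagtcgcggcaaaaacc
Plin2: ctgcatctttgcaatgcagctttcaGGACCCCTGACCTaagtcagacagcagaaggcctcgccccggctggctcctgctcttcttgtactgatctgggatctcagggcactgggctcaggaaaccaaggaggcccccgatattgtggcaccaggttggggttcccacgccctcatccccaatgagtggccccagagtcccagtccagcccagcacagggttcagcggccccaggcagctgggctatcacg

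Under LPS, 6 of the 9 genes with enough counts to test were lower in KO than in WT cells and none was higher, with a median log2 fold change of -0.56 (edgeR, Benjamini-Hochberg adjusted p under 0.05 over all genes). Over all 26420 genes tested, 12.7% were lower and 7.87% higher in that comparison, with a median of 0.07. In medium, 4 of the 9 were lower in KO and none was higher (median -0.54), where 12.3% of all genes were lower and 6.88% higher (median 0.04). Without WT medium replicate 2, 6 of the 9 were lower and none higher, where 19.1% of all genes were lower and 22.6% higher. LPS itself lowered 3 of the 9 in KO cells and raised none (median -0.27), where 26.8% of all genes fell and 25.3% rose (median -0.04). In WT cells LPS lowered 2 and raised 1 (median 0.05), where 16.3% of all genes fell and 16.3% rose (median -0.07). In this fit the falls of the set in both lines and its rise in WT were thus near the shares of all genes, while none rose in KO. When the model held the pseudogene share, 2 of the 9 were lower under LPS in KO and none higher, where 2.49% of all genes were lower and 5.08% higher. Scaled by library totals alone, the median of all genes under LPS was -0.29 in KO and -0.40 in WT, so LPS effects shift down on that scale. The LPS effect differed between the lines for 1 of the 9, lower in KO, where 0.908% of all genes had a lower and 0.693% a higher LPS effect in KO. Without WT medium replicate 2 it was also 1 of the 9, where 8.86% of all genes had a lower and 5.95% a higher LPS effect in KO. Ch25h was too low to test. Both line comparisons share their samples with the LPS comparisons, so the 5 sets of values are not independent.

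Counted by libraries that do not overlap, all 3 KO libraries were below all 3 WT libraries under LPS for 6 of the 9 genes and above for none, where 19.6% of all genes lay below and 19.3% above. In medium 7 of the 9 lay below and none above, where 19.6% of all genes lay below and 16% above. For LPS against medium in KO, 5 lay below and none above, where 32.6% of all genes lay below and 28.8% above. For LPS against medium in WT, 3 lay below and 3 above, where 19% of all genes lay below and 24% above.

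**Figure D1:**
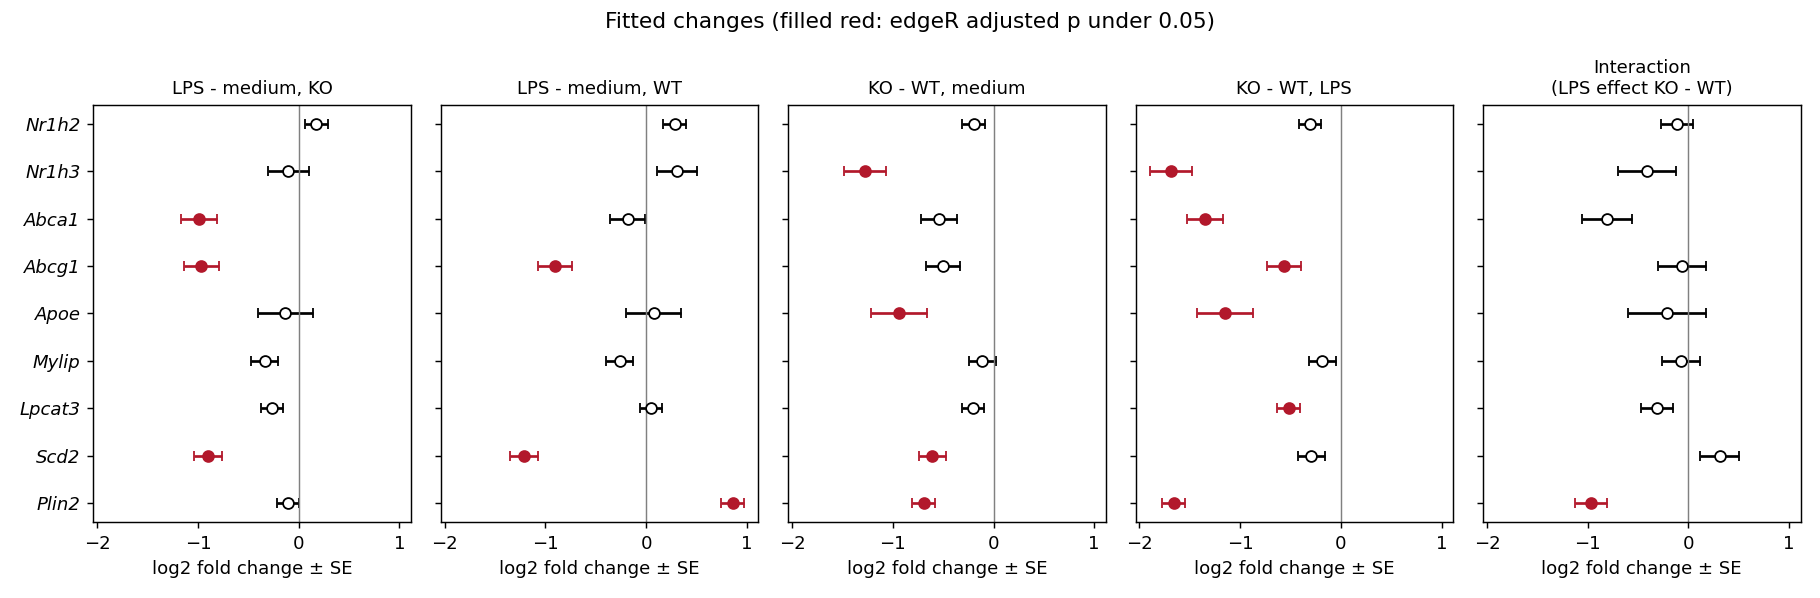
Fitted log2 fold changes (points, with SE as bars) of the 9 tested genes in the 5 comparisons, with called genes in filled red. Plin2, Nr1h3, Abca1 and Apoe lie farthest below zero for KO minus WT under LPS, and Plin2 is the called gene in the interaction.

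The LXR receptors came first. Nr1h2 (ENSMUSG00000060601) encodes LXR beta, the widely expressed form, and Nr1h3 (ENSMUSG00000002108) encodes LXR alpha, which is typical of macrophages and is itself an LXR target in human macrophages. Under LPS, Nr1h3 was at 1.74, 2.21 and 1.60 CPM in KO replicates 1 to 3, against 6.51, 6.01 and 5.40 CPM in WT. Its medium values were 2.12, 2.41 and 1.44 CPM in KO, against 4.74, 4.95 and 4.77 CPM in WT. The KO and WT libraries did not overlap under either condition. Nr1h3 was 3.22-fold lower in KO under LPS (log2 fold change -1.69 ± 0.21 SE, adjusted p = 0.00013) and 2.42-fold lower in medium (-1.28 ± 0.21, adjusted p = 0.0012). LPS did not pass the test for Nr1h3 in KO (-0.10 ± 0.21, adjusted p = 0.702) or WT cells (0.31 ± 0.20, adjusted p = 0.25). Its annotated exons share 34 bases with a processed transcript on the same strand.

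Nr1h2 was the more abundant receptor and varied less. It was at 38.8, 28.1 and 39.0 CPM in KO LPS libraries, against 44.97, 42.1 and 43.8 CPM in WT LPS libraries. Medium libraries held 32.9, 29.6 and 31.3 CPM in KO, against 36.8, 34.2 and 36.5 CPM in WT. All KO libraries lay below the WT libraries of the same condition, but the difference missed the threshold under LPS (-0.31 ± 0.11, adjusted p = 0.0811) and in medium (-0.20 ± 0.11, adjusted p = 0.224). KO LPS replicate 2 was the lowest library, and without it LPS raised Nr1h2 in KO (0.32 ± 0.07, adjusted p = 0.00681) and in WT cells (0.29 ± 0.06, adjusted p = 0.00666). With all 12 libraries the LPS effect was 0.18 ± 0.11 in KO (adjusted p = 0.212) and 0.28 ± 0.11 in WT cells (adjusted p = 0.0732), and both turned negative when libraries were scaled by total alone (-0.08 and -0.05).

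Per kilobase of exon, Nr1h3 made up a smaller part of the 2 LXR transcripts in KO cells. Its share was 5.63%, 9.49% and 5.19% in KO LPS libraries, against 16.2%, 16.0% and 14.1% in WT LPS libraries. In medium it was 7.92%, 9.79% and 5.78% in KO, against 14.7%, 16.2% and 14.8% in WT. The mean share was 6.77% ± 2.37 in KO LPS and 15.4% ± 1.1 in WT LPS (SD, n = 3 each; two-sided exact permutation p = 0.1, which is the lowest value possible with 3 and 3 libraries), and 7.83% ± 2.01 in KO medium and 15.2% ± 0.8 in WT medium (exact permutation p = 0.1). LPS against medium gave exact permutation p = 0.5 in KO and 0.9 in WT, for 3 libraries each.

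**Figure D2:**
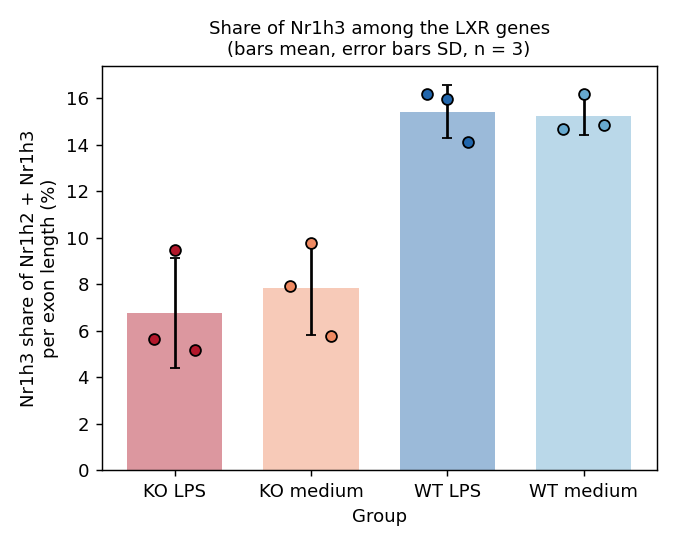
Share of Nr1h3 in the summed level of Nr1h2 and Nr1h3 per exon length (vertical axis, %), by group, with libraries as points, means as bars and SD as error bars. The 6 KO libraries lie between 5.19% and 9.79%, under the 6 WT libraries at 14.1% to 16.2%.

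Receptor partners and coregulators were a list of 17 genes, all of which were tested. In KO against WT under LPS 4 were lower and none higher (median log2 fold change -0.01), and in medium 3 were lower and 1 higher (median -0.03). The higher gene was the corepressor deacetylase gene Hdac3, named after its values were seen (0.34 ± 0.07, adjusted p = 0.00709). Rxra, the main retinoid X receptor partner of LXR in macrophages, was lower in KO under LPS (-0.36 ± 0.11, adjusted p = 0.0446) and in medium (-0.50 ± 0.11, adjusted p = 0.00924). The coactivator genes Ncoa3 and Ncoa6 were lower in KO under LPS (-0.70 ± 0.11 and -0.65 ± 0.11) and in medium (-0.66 ± 0.11 and -0.65 ± 0.11). LPS against medium called 6 higher and 3 lower in KO, and 5 higher and 3 lower in WT. The LPS counts of this and the other lists are to be read against the 25.3% of all genes that rose and 26.8% that fell in KO, and 16.3% each way in WT. Their line counts stand against 12.7% of all genes lower and 7.87% higher in KO under LPS, and 12.3% and 6.88% in medium. For the interaction, 0.908% of all genes had a lower and 0.693% a higher LPS effect in KO. Rxra and Rxrb fell under LPS in KO (-1.02 ± 0.11 and -0.47 ± 0.09) and in WT cells (-1.16 ± 0.11 and -0.48 ± 0.09). Crebbp, a histone acetyltransferase coactivator, rose in both (0.46 ± 0.13 in KO and 0.51 ± 0.13 in WT), and Ep300, its relative and the most abundant gene of the list, did not pass the test in any comparison.

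Both cholesterol exporters were lower in KO than in WT cells under LPS. Abca1 (ENSMUSG00000015243) passes cholesterol and phospholipid to lipid-poor apolipoproteins. It was at 18.4, 12.6 and 15.6 CPM in KO LPS libraries, against 40.4, 37.3 and 40.8 CPM in WT LPS libraries. Without LPS it was at 38.3, 22.2 and 32.1 CPM in KO, against 45.7, 44.4 and 44.7 CPM in WT. The KO LPS libraries were the lowest of all 12, and the WT libraries of each condition lay close together. Abca1 was 2.55-fold lower in KO than in WT under LPS (-1.35 ± 0.18, adjusted p = 0.000239) and missed the threshold in medium (-0.54 ± 0.18, adjusted p = 0.0527), where 10 of 23 alternative settings called it.

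LPS lowered Abca1 in KO cells by 1.99-fold (-0.99 ± 0.18, adjusted p = 0.00141), and in WT cells the change was -0.18 ± 0.18 (adjusted p = 0.435). The difference between these LPS effects was -0.81 ± 0.25 and missed the threshold (adjusted p = 0.171). KO medium replicate 2 had the lowest Abca1 level among the medium libraries, and without it the difference was -0.99 ± 0.18 (adjusted p = 0.0224). This was the only 1 of the alternatives that called it. With 1 library left out, the difference ran from -0.993 to -0.615 and the adjusted p reached 0.338. When the processed pseudogene share was added to the model, the change of Abca1 in KO was -0.98 ± 0.33 (adjusted p = 0.108), with a larger SE and a similar size. That share did not overlap between KO LPS and KO medium libraries, so its part and that of LPS cannot be told apart in KO.

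Abcg1 (ENSMUSG00000024030), which passes cholesterol to mature lipoprotein particles, fell under LPS in both lines. It was at 36.8, 28.7 and 44.1 CPM in KO LPS libraries, against 77.0, 63.8 and 73.4 CPM in KO medium libraries. In WT cells it was at 42.0, 55.6 and 64.4 CPM under LPS, against 100.2, 95.7 and 107.0 CPM in medium. LPS and medium libraries did not overlap in either line. The fall was 1.96-fold in KO (-0.97 ± 0.17, adjusted p = 0.00127) and 1.87-fold in WT cells (-0.90 ± 0.17, adjusted p = 0.00205), and the difference of the effects was -0.07 ± 0.24 (adjusted p = 0.922).

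Between the lines Abcg1 was 1.48-fold lower in KO under LPS (-0.56 ± 0.17, adjusted p = 0.0353), with overlapping libraries. In medium it was at -0.50 ± 0.17 (adjusted p = 0.0598), where the libraries did not overlap and 8 of 23 alternative settings called it. The call under LPS was lost without KO medium replicate 3, KO LPS replicates 1 or 2, WT medium replicate 1, or WT LPS replicates 2 or 3 (adjusted p = 0.0518 to 0.149), with library totals alone (0.0528) and with only the groups compared (0.0511), at log2 fold changes of -0.42 to -0.59. Its transcripts share 1.45% of their 31-base words with other genes, first among them Abcg4.

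Apoe (ENSMUSG00000002985) encodes the apolipoprotein that carries exported lipid in the brain. It was at 221, 98.6 and 189 CPM in KO LPS libraries, against 445, 316 and 368 CPM in WT LPS libraries. Its medium values were 224, 141 and 194 CPM in KO, against 418, 313 and 340 CPM in WT. KO libraries lay below WT libraries in both conditions, while LPS and medium libraries overlapped in each line. Apoe was 2.22-fold lower in KO under LPS (-1.15 ± 0.28, adjusted p = 0.0123) and 1.92-fold lower in medium (-0.94 ± 0.28, adjusted p = 0.0366).

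The LPS effect on Apoe did not pass the test in KO (-0.14 ± 0.27, adjusted p = 0.703) or WT cells (0.08 ± 0.27, adjusted p = 0.848). KO LPS replicate 2 had the lowest Apoe level of the 12 libraries, and without it the difference between lines under LPS was -0.88 ± 0.21 (adjusted p = 0.0156). Without WT LPS replicate 1 that call was lost (-1.02 ± 0.30, adjusted p = 0.0515). The call in medium was lost without KO medium replicates 2 or 3, KO LPS replicate 3, WT medium replicates 1 or 3, or WT LPS replicate 3 (adjusted p = 0.0519 to 0.0997). It was also lost with no filter on low counts (0.106) and when the model held the pseudogene share (0.205), at log2 fold changes of -0.95 ± 0.30 and -0.96 ± 0.40.

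**Figure D3:**
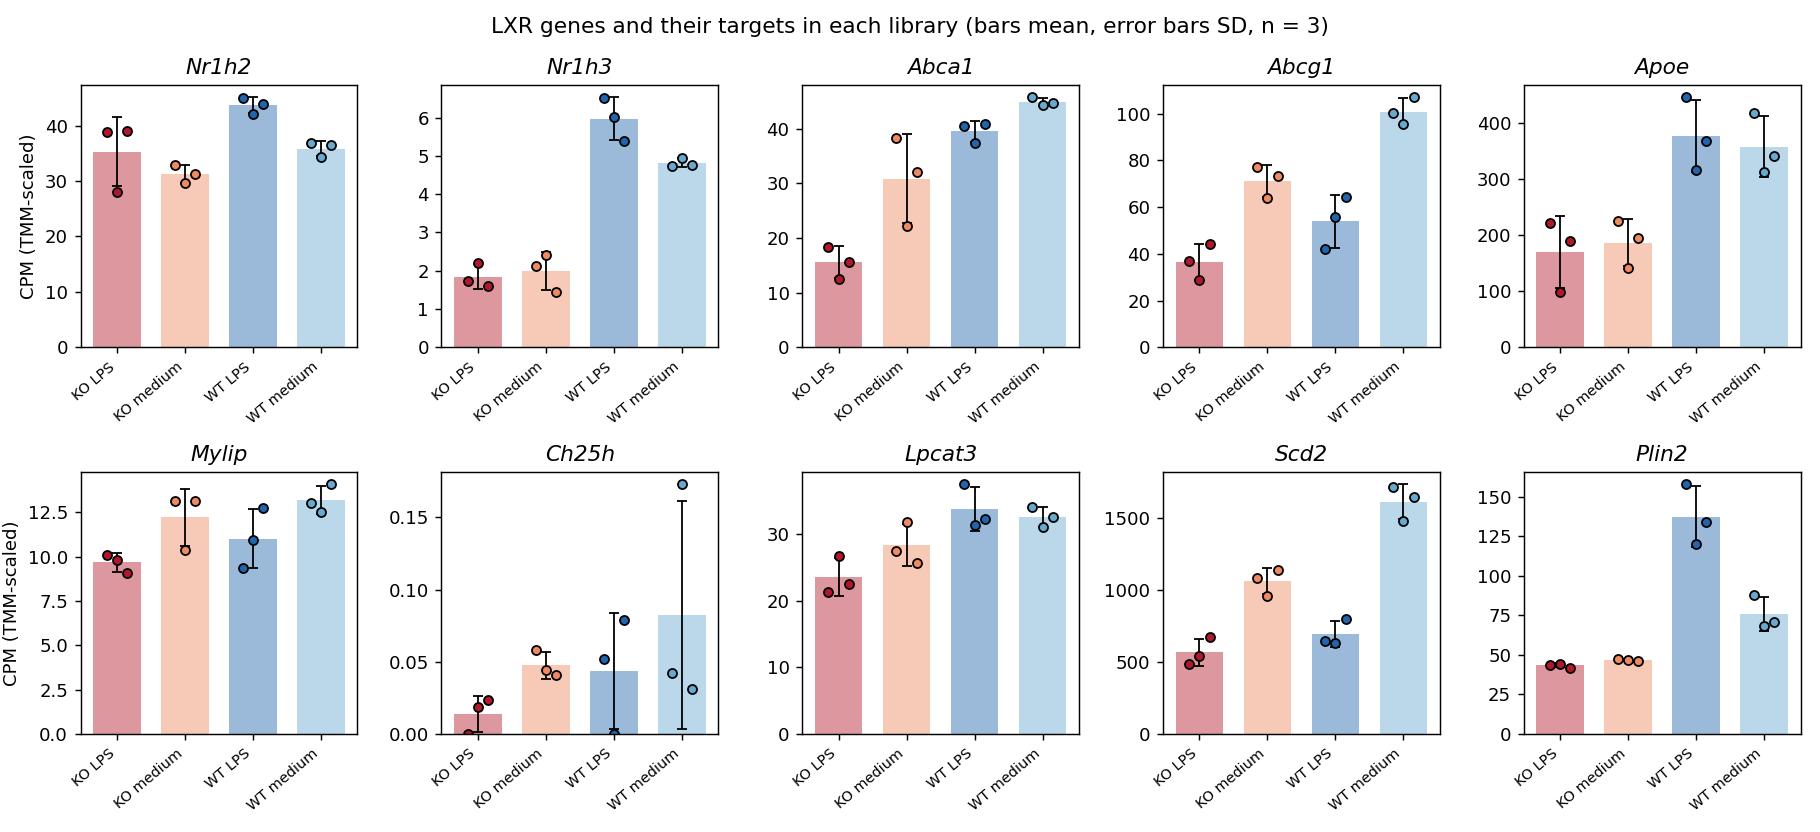
Level of each gene in every library (vertical axis, TMM-scaled CPM, each gene on its own scale from 0), by group, with libraries as points, means as bars and SD as error bars. Nr1h3, Abca1, Apoe and Plin2 show KO LPS libraries below every WT LPS library, Abcg1 and Scd2 show lower values under LPS in both lines, and Ch25h stays under 0.2 CPM.

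Other LXR targets and genes of sterol or lipoprotein export were taken as a list of 23, of which 20 were tested. In KO against WT 7 were lower and 1 higher under LPS (median log2 fold change -0.25), and 8 were lower and 1 higher in medium (median -0.39). Of all genes, 12.7% were lower and 7.87% higher under LPS, and 12.3% and 6.88% in medium. Of the called genes whose mean log2 CPM was 2 or more, those with the largest differences under LPS were Npc2 (-1.05 ± 0.19) and Npc1 (-0.98 ± 0.09), which release cholesterol from lysosomes, and the exporter gene Abca7 (-0.53 ± 0.09). All 3 were also lower in KO in medium (-0.73 ± 0.19, -0.53 ± 0.09 and -0.38 ± 0.09). The largest in medium were in Arl4c, a small GTPase that is an LXR target in human cells and was higher in KO (1.11 ± 0.33), in Rnf145, a sterol-responsive ubiquitin ligase (-0.91 ± 0.08), and in the fatty acid synthase gene Fasn (-0.82 ± 0.13). Under LPS, Rnf145 was also lower in KO (-0.30 ± 0.08), while Arl4c (0.69 ± 0.33, adjusted p = 0.192) and Fasn (-0.32 ± 0.13, adjusted p = 0.118) missed the threshold. Lpl, the lipoprotein lipase gene and the most abundant of the list, was lower in KO under LPS (-0.39 ± 0.12, adjusted p = 0.033). It was at -0.23 ± 0.12 in medium (adjusted p = 0.187). The 1 gene higher in KO under LPS was Nr0b2, a nuclear receptor gene named after its values were seen (0.74 ± 0.21, adjusted p = 0.0279).

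LPS against medium called 4 of these 20 higher and 5 lower in KO, and 4 higher and 6 lower in WT. Scd1, a stearoyl-CoA desaturase gene and LXR target, fell in KO (-2.79 ± 0.39) and WT cells (-2.49 ± 0.38), and Rnf145 rose in KO (1.44 ± 0.08) and WT cells (0.83 ± 0.08). Arl4c fell in KO (-1.18 ± 0.33) and Npc2 rose in WT cells (0.77 ± 0.19). In the interaction, Rnf145 (0.61 ± 0.12, adjusted p = 0.0269) and Acsl3, an acyl-CoA synthetase gene (0.49 ± 0.10, adjusted p = 0.0411), had a higher LPS effect in KO and none of the list had a lower one. Acsl3 fell under LPS in WT cells (-0.51 ± 0.07), and its change in KO was -0.02 ± 0.07 (adjusted p = 0.874).

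Mylip (ENSMUSG00000038175) encodes a ubiquitin ligase that LXR induces. It was at 10.1, 9.82 and 9.09 CPM in KO LPS libraries, against 13.1, 10.4 and 13.2 CPM in KO medium libraries. In WT cells it was at 9.38, 10.9 and 12.7 CPM under LPS, against 13.0, 12.5 and 14.1 CPM in medium. KO LPS libraries lay just below KO medium libraries, and the WT libraries overlapped. The LPS effect missed the threshold in KO (-0.34 ± 0.13, adjusted p = 0.0531) and in WT cells (-0.26 ± 0.13, adjusted p = 0.15), and in KO it was called in 9 of 23 alternative settings, among them protein-coding genes alone (-0.49 ± 0.13, adjusted p = 0.0068). The lines did not differ past the threshold under LPS (-0.19 ± 0.13, adjusted p = 0.414) or in medium (-0.11 ± 0.13, adjusted p = 0.559).

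Ch25h (ENSMUSG00000050370) encodes the hydroxylase that makes an oxysterol from cholesterol, and in mouse macrophages it is known as a gene induced by LPS and interferon. Here it had 0, 1 and 1 counts in KO LPS libraries, against 3, 2 and 2 counts in KO medium libraries. In WT cells it had 3, 0 and 5 counts under LPS, against 2, 8 and 2 counts in medium. The 12 libraries together held 29 counts of Ch25h among 613303791. Summed over a group it had 2 counts in KO LPS against 7 in KO medium, and 8 in WT LPS against 12 in WT medium. No rise under LPS was seen in either line, and the counts were too few to measure a change. With no filter on low counts the edgeR adjusted p was 0.291 in KO and 0.605 in WT cells. On the opposite strand, 159 bases of its exon overlap a long non-coding RNA, and the strand setting of the counting is not given in the sources used here.

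Enzymes that hydroxylate, esterify or release sterols were a list of 12 genes, of which 9 were tested. LPS lowered 5 and raised 1 in KO (median -0.33) and lowered 4 and raised 1 in WT cells (median -0.26). Nceh1, a neutral cholesterol ester hydrolase gene, fell in KO (-1.22 ± 0.13) and WT cells (-1.05 ± 0.13). Cyp27a1, a mitochondrial sterol hydroxylase gene, fell in KO (-0.52 ± 0.11) and WT cells (-0.43 ± 0.11). Soat1, the most abundant of the list and the gene of the main cholesterol esterifying enzyme of macrophages, fell in KO (-0.33 ± 0.09) and WT cells (-0.26 ± 0.09).

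Lipa, the lysosomal acid lipase gene, fell in KO (-0.55 ± 0.14). The riser in KO was Lcat, a cholesterol acyltransferase gene at a low level and named after its values were seen (1.38 ± 0.40, adjusted p = 0.0134). Soat2, the second esterifying enzyme gene, rose under LPS in WT cells (0.93 ± 0.23) and was the 1 gene of the list lower in KO than in WT under LPS (-1.66 ± 0.23, adjusted p = 0.000327). In medium the 1 lower gene was Cyp46a1, a sterol hydroxylase gene named after its values were seen (-1.27, adjusted p = 0.0272). Since 12.7% of all genes were lower in KO under LPS and 12.3% in medium, 1 of 9 was near the share of all genes.

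Lpcat3 and Scd2 shape the fatty acids of membranes. Lpcat3 (ENSMUSG00000004270) encodes the LXR-induced enzyme that inserts polyunsaturated acyl chains into phospholipids. It was at 21.3, 26.8 and 22.5 CPM in KO LPS libraries, against 37.5, 31.4 and 32.2 CPM in WT LPS libraries. Without LPS it was at 27.4, 31.8 and 25.7 CPM in KO, against 34.1, 31.1 and 32.6 CPM in WT. The libraries separated by line under LPS and overlapped in medium. Lpcat3 was 1.43-fold lower in KO under LPS (-0.52 ± 0.11, adjusted p = 0.00616) and was at -0.20 ± 0.11 in medium (adjusted p = 0.21).

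The LPS effect on Lpcat3 was -0.26 ± 0.11 in KO (adjusted p = 0.0665, called in 9 of 23 alternative settings) and 0.05 ± 0.11 in WT cells (adjusted p = 0.76), and their difference was -0.31 ± 0.16 (adjusted p = 0.414). On the opposite strand, 334 of its 3268 exon bases overlap Emg1, so its counts are less certain.

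Scd2 (ENSMUSG00000025203), a stearoyl-CoA desaturase gene, had the highest CPM of the 10 genes and fell under LPS in both lines. It was at 489, 541 and 671 CPM in KO LPS libraries, against 1083, 963 and 1139 CPM in KO medium libraries. In WT cells it was at 650, 635 and 802 CPM under LPS, against 1719, 1482 and 1646 CPM in medium. LPS and medium libraries were far apart in each line. The fall was 1.87-fold in KO (-0.90 ± 0.14, adjusted p = 0.000463) and 2.32-fold in WT cells (-1.22 ± 0.14, adjusted p = 4.83e-05), with a difference of 0.31 ± 0.19 (adjusted p = 0.507).

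In medium Scd2 was 1.52-fold lower in KO than in WT cells (-0.61 ± 0.14, adjusted p = 0.00949), and that call was lost when the model held the pseudogene share (-0.52 ± 0.18, adjusted p = 0.113). Under LPS the lines overlapped (-0.29 ± 0.14, adjusted p = 0.171). Scd2 shares 6.81% of its 31-base words with other genes, led by Scd1, Scd3 and Scd4, and 61 exon bases with a microRNA gene.

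Related acyltransferases, desaturases and elongases were 14 genes, all tested, with Scd1 also in the list of LXR targets. LPS lowered 7 and raised 2 in KO (median -0.17) and lowered 6 and raised 1 in WT cells (median -0.46). Scd3 fell with Scd1, in KO (-1.71 ± 0.20) and in WT cells (-1.65 ± 0.19). Fads1, a fatty acid desaturase gene and the most abundant of the list, fell in KO (-0.58 ± 0.09) and WT cells (-0.46 ± 0.09). Lpcat2, an LPS-responsive lysophospholipid acyltransferase gene of macrophages, rose in KO (1.65 ± 0.21) and WT cells (1.93 ± 0.20).

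Between the lines, 4 of these 14 were lower in KO under LPS and none higher (median -0.20), and 6 were lower and none higher in medium (median -0.31). The shares of all genes were 12.7% lower and 7.87% higher under LPS, and 12.3% and 6.88% in medium. Lpcat2 was lower in KO under LPS (-2.41 ± 0.20) and in medium (-2.13 ± 0.21), as was the acyltransferase gene Mboat1 (-1.63 ± 0.23 and -1.47 ± 0.23). Mboat7, an acyltransferase gene for phosphatidylinositol, was lower in KO under LPS (-0.99 ± 0.08) and in medium (-0.76 ± 0.08), as was Lpcat4 (-0.79 ± 0.12 and -0.996 ± 0.122). Lpcat1 was the 1 gene of the list with a called interaction, with a higher LPS effect in KO (0.92 ± 0.15, adjusted p = 0.0116). It fell under LPS in WT cells (-0.92 ± 0.11), and its change in KO was -0.005 ± 0.106 (adjusted p = 0.972).

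Plin2 (ENSMUSG00000028494), which encodes the protein coat of lipid droplets, was the 1 gene of the 9 whose LPS effect differed between the lines past the threshold. It was at 43.7, 44.4 and 42.0 CPM in KO LPS libraries, against 47.6, 46.7 and 45.9 CPM in KO medium libraries. In WT cells it was at 158, 120 and 134 CPM under LPS, against 88.0, 68.3 and 70.6 CPM in medium. Every WT library was above every KO library, and within WT cells every LPS library was above every medium library. LPS raised Plin2 by 1.81-fold in WT cells (0.86 ± 0.11, adjusted p = 0.000139), and the change in KO was -0.11 ± 0.11 (adjusted p = 0.443).

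The difference of the LPS effects on Plin2 was -0.97 ± 0.16 (adjusted p = 0.0116). Plin2 was 3.16-fold lower in KO than in WT under LPS (-1.66 ± 0.11, adjusted p = 1.63e-06) and 1.62-fold lower in medium (-0.70 ± 0.11, adjusted p = 0.00121). All 4 calls of Plin2 were kept in every alternative computed. Its transcripts share 5.05% of their 31-base words with other genes, first among them Gm12551.

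Other perilipins and droplet proteins were a list of 15, of which 12 were tested. Under LPS 3 were lower in KO than in WT and 1 higher (median -0.11), and in medium 3 were lower and none higher (median -0.18). These counts stand against 12.7% of all genes lower and 7.87% higher under LPS, and 12.3% and 6.88% in medium. Hilpda, an inhibitor of lipolysis on droplets, was lower in KO under LPS (-1.78 ± 0.15, adjusted p = 6.34e-06) and in medium (-1.07 ± 0.14). Abhd5, a lipase coactivator, was lower in KO under LPS (-0.70 ± 0.09) and in medium (-0.61 ± 0.09), as was the seipin gene Bscl2 (-0.40 ± 0.10 and -0.35 ± 0.10).

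LPS raised 3 of these 12 and lowered 2 in KO, and raised 2 and lowered 2 in WT cells. Hilpda rose in KO (0.42 ± 0.14) and WT cells (1.13 ± 0.14), and Dgat2, which makes triglyceride, rose in KO (0.73 ± 0.15) and WT cells (1.09 ± 0.15). Dgat1, another triglyceride synthesis gene, fell in KO (-0.29 ± 0.09) and WT cells (-0.35 ± 0.09), as did Bscl2 (-0.34 ± 0.10 and -0.29 ± 0.10), and Plin3, the most abundant gene of the list, was not called in any comparison. No gene of the list was called in the interaction. The gene higher in KO under LPS was Plin5, a perilipin gene at a low level and named after its values were seen (1.16 ± 0.35, adjusted p = 0.0371).

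**Figure D4:**
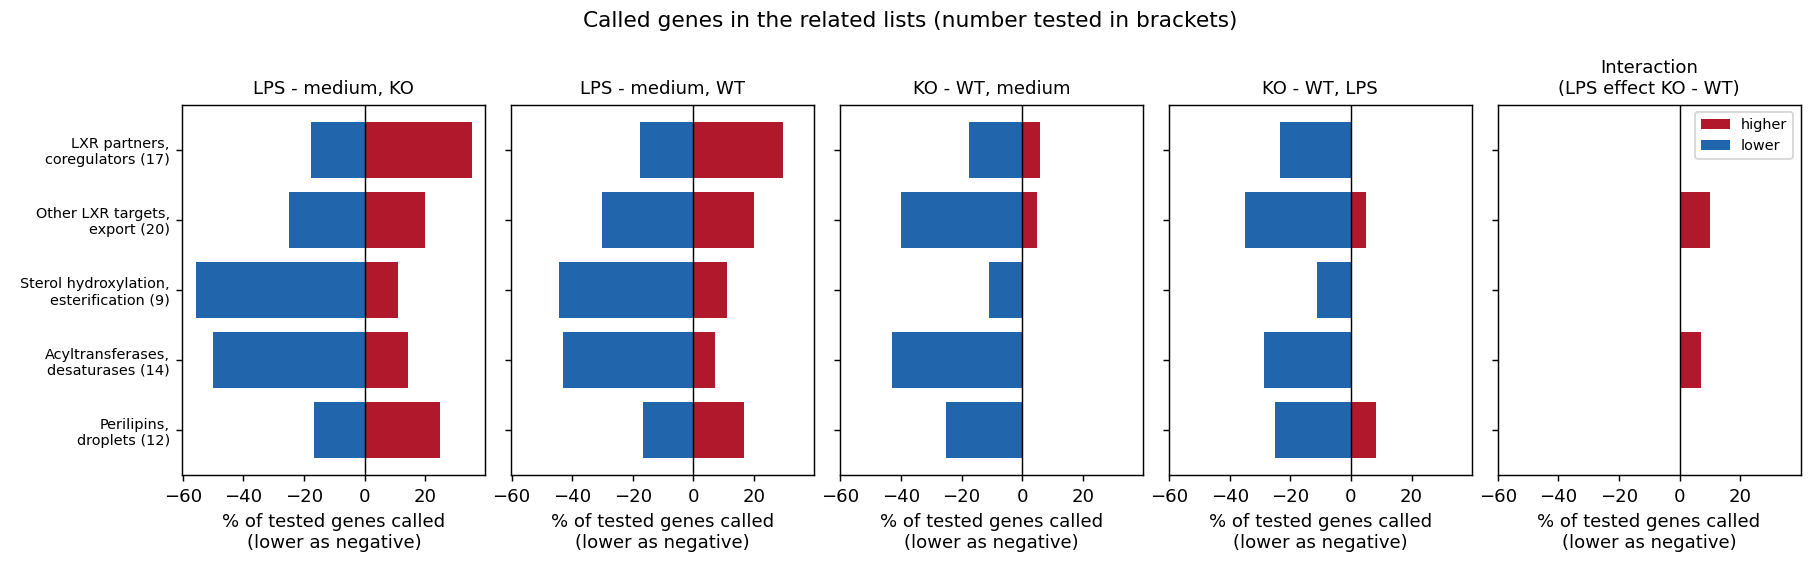
Share of the tested genes of each of the 5 related lists that were called higher (positive, red) or lower (drawn as negative, blue) in the 5 comparisons, in % (horizontal axis), with the number tested in brackets. Between the lines, most calls are lower in KO, where 12.7% of all genes were lower and 7.87% higher under LPS, and 12.3% and 6.88% in medium. For LPS against medium, the desaturase, sterol enzyme and other LXR target lists hold more falls than rises in both lines. Of all genes, 26.8% fell and 25.3% rose in KO, and 16.3% went each way in WT. The other LXR target list in KO, with 5 falls and 4 rises among 20, was near those shares.

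Per kilobase of exon, Scd2 and Apoe were the most abundant of the 10 genes in every group. Scd2 was at 104 ± 17 CPM per kilobase in KO LPS, 194 ± 16 in KO medium, 127 ± 17 in WT LPS and 296 ± 22 in WT medium (SD, n = 3 each). Apoe was at 79.4 ± 29.7, 87.1 ± 19.7, 176 ± 30 and 167 ± 25 CPM per kilobase in the same groups. Apoe was above Scd2 in WT LPS libraries and below it in both medium groups, and in KO LPS libraries the ranges overlapped.

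Plin2 followed in every group, at 12.4 to 39.1 CPM per kilobase. Nr1h2, Lpcat3 and Abcg1 took ranks 4 to 6, with Abcg1 at rank 4 in both medium groups and rank 6 in both LPS groups. Neighbours among these 3 overlapped in KO medium, as did Nr1h2 and Lpcat3 in WT medium. Abca1 and Mylip took ranks 7 and 8 and overlapped in WT LPS, WT medium and KO medium, while in KO LPS Mylip (2.99 ± 0.16) was above Abca1 (1.50 ± 0.28). Nr1h3 was at rank 9 and Ch25h last in every group.

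**Figure D5:**
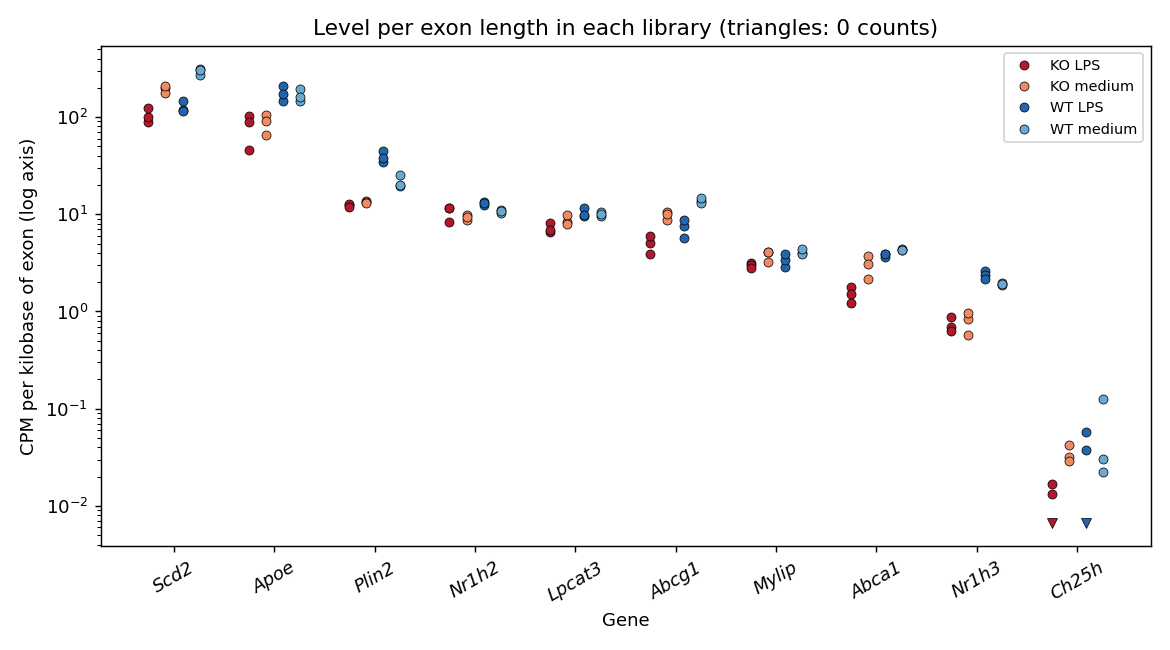
Level per kilobase of exon (vertical log axis, CPM per kilobase) of the 10 genes in the 12 libraries, coloured by group, with triangles for libraries with 0 counts. Scd2 and Apoe lie highest, Nr1h3 lies at rank 9, and Ch25h lies far under the others.

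Among 9748 protein-coding genes outside the set whose mean log2 CPM was 2 or more, those whose log2 CPM ran most like Abca1 over the 12 libraries were Ppp1r3b (Pearson r = 0.969), Leprot (0.964) and Ceacam1 (0.963). For Apoe they were Napsa (0.98), Cd93 (0.978) and Gsn (0.976). These values describe 12 libraries in 4 groups, so differences between groups make up much of them, and no ranking was made for Ch25h because of its counts.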

How the data were processed

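The authors deposited raw read counts per Ensembl gene for 12 libraries. Per the submitters' processing notes, FastQC 0.11.9, Trimmomatic 0.39, STAR 2.7.9a, featureCounts and DESeq2 1.32.0 were used with build GRCm39. No annotation release, strand setting or rule for multi-mapping reads is given in the sources used here. Symbols, gene classes and exon lengths came from GENCODE on GRCm38, and 52083 of 55416 identifiers matched a symbol. Exon lengths and exon overlaps rest on its GRCm38 coordinates, while the reads were counted with GRCm39.

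The test was edgeR 4.0.16 (R 4.3.3) on the counts as deposited: filterByExpr by group (count minimum 10) left 26420 genes, TMM scaling, and a robust quasi-likelihood fit of 4 group means over all 12 libraries, with Benjamini-Hochberg adjustment over all genes. Values after ± are SE of this fit or, where stated, SD over 3 libraries, and both include the spread between libraries. DESeq2 1.42.0 and other settings served as alternatives. Levels are TMM-scaled CPM, and correlations used log2 CPM with a prior count of 2. Shared sequence is the percent of a gene's 31-base words that occur in transcripts of other genes.

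The genes, lists and alternatives were chosen with earlier results of these data known. Named genes were all 10 of the set, from each list the 3 called genes with the largest change at a mean log2 CPM of at least 2 and the most abundant one, and the 3 genes most correlated with Abca1 and with Apoe (Ch25h, also in the rule, was too low to rank). A further list of related genes is not reported here.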

Additional observations from a re-analysis of the deposited data

Results flagged for a closer look

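The LPS effect on Plin2, the lipid droplet coat gene, differed between the lines by -0.97 on the log2 scale (LPS effect in KO minus LPS effect in WT, edgeR adjusted p = 0.0116). All 3 WT LPS libraries were above the WT medium libraries, as for 24% of all genes. All 3 KO LPS libraries were below the KO medium libraries, as for 32.6% of all genes. The change in KO did not pass the edgeR test (-0.11 ± 0.11, adjusted p = 0.443). Over the alternatives the difference between the lines lay between -1.06 and -0.86, with adjusted p of 7.05e-05 to 0.0417.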

How the results depend on the processing

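Each of the 45 tested gene values was recomputed under up to 23 alternatives. Of 1026 recomputed values 928 kept their direction and side of the threshold, 19 lost a call, 50 gained one and 29 changed sign, none of them of a called value. Of 17 calls, 12 held in every alternative. Genes lower under LPS in KO, 3 in the report, were 6 with library totals alone (39.4% of all genes lower). They were 5 without a filter (16.2%), 5 with a count minimum of 50 (30.2%) and 6 with protein-coding genes only (26%). With 1 library left out they were 3 to 5 (5 without WT medium replicate 2, 30.3%, or 3, 29.3%). Genes higher there were 0 to 1 (1 without KO LPS replicate 2, where 22.5% of all genes were higher). In WT, genes higher under LPS were 2 with only the groups compared (15.3% of all genes). They were 1 to 2 with 1 library left out (2 without KO LPS replicate 2, 16.7%). Genes lower were 4 with library totals alone (37.8%). Genes lower in KO in medium were 2 when the model held the pseudogene share (6.75% of all genes). With 1 library left out they were 3 to 6 (9.09% to 19.1%). Genes lower in the interaction were then 1 to 2 (2 without KO medium replicate 2, 0.86%, where Abca1 was added). The causes were not tested.

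With library totals alone, calls over all genes for LPS against medium were 4182 higher and 10422 lower in KO (6679 and 7070 with TMM), 2104 and 9985 in WT (4303 and 4297), 2922 and 2936 for KO against WT under LPS (2080 and 3351), and 360 and 236 in the interaction (183 and 240). When the model held the pseudogene share they were 1342 higher and 659 lower for LPS in KO, 3260 and 2314 for LPS in WT, 558 and 1784 for KO against WT in medium (1818 and 3256 in the report) and 74 and 125 in the interaction. With 1 library left out, calls for KO against WT in medium ran from 907 to 6110 higher and 2477 to 5155 lower, and in the interaction from 69 to 1606 higher and 116 to 2391 lower, the highest 4 values all without WT medium replicate 2. They ran from 4748 to 6669 and 5823 to 8191 for LPS in KO, 2980 to 4544 and 2094 to 6337 for LPS in WT, and 1382 to 2288 and 2683 to 3609 between lines under LPS. Interaction calls were 442 and 415 with DESeq2 and 311 and 350 with the replicate block. They were 280 and 275 of 17538 genes with a count minimum of 50, and 274 and 396 of 16183 with protein-coding genes only. The protein-coding setting called 4083 and 4202 for LPS in KO, or 25.2% and 26% of its genes, against 25.3% and 26.8% in the report. With only the groups compared, 802 of 24885 were higher in KO in medium (3.22%, against 6.88% in the report). Values that turned sign with library totals alone were the LPS effect of Nr1h2 in KO (-0.085) and WT (-0.053), of Nr1h3 (-0.028), Apoe (-0.262) and Lpcat3 (-0.289) in WT, and the interactions of Abcg1 (0.008) and Mylip (0.005). In WT, Apoe and Lpcat3 under LPS were also negative without a filter (-0.012 and -0.044), with only the groups compared (-0.013 and -0.043) and with protein-coding genes only (-0.019 and -0.049). With 1 library left out, uncalled effects that crossed zero were the LPS effects of Nr1h3 in KO (-0.326 to 0.005), Apoe in KO (-0.367 to 0.145) and WT (-0.071 to 0.193) and Lpcat3 in WT (-0.047 to 0.103), and the interactions of Nr1h2 (-0.188 to 0.033), Abcg1 (-0.223 to 0.082), Apoe (-0.451 to 0.062) and Mylip (-0.182 to 0.04).

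The labels give no shared origin for equal replicate numbers, so same-numbered libraries were not treated as pairs. Their deviations correlated between -0.366 and 0.391, which does not decide whether they are pairs. As a hint from the data only, the 6 pairs numbered 1 were all positive (0.108 to 0.391), and 20 of 36 best matches had the same number. With the replicate block, genes higher under LPS in WT were 2 (Nr1h2 added), where 18.4% of all genes were higher. Genes lower in KO were then 6 in medium (Abca1 and Abcg1 added), where 14.3% of all genes were lower. Under LPS they were 8 (Nr1h2, adjusted p = 0.0263, and Scd2, 0.0498, added), where 14.7% of all genes were lower. The other counts were as reported. Without mismatches no DR4 match was found, and with up to 3, a limit added after the windows were seen, 1 gene had one. The fit on only the groups compared was not run for the interaction, which needs all 4 groups.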
